A study of Mus musculus with 2 samples.

Results

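A set of 39 genes of the lysosome, among them 12 cathepsins, was examined in the colon of mice with the gene of the prostaglandin E2 receptor EP4 (Ptger4) deleted in the epithelium. The genes were listed by name and not by their values, although earlier results of these data were known when they were chosen. They are 39 of the 22905 genes that could be named on the arrays, and 38 of them were among the 14676 genes with a value. Gene expression had been measured in whole colon of C57BL/6 mice 8 weeks old on Agilent mouse expression arrays with 1 colour (Cy3). The control was Villin-Cre and the other group was Villin-Cre; EP4flox/flox (EP4 cKO), so that both groups carried Cre recombinase under the promoter of villin, which is active in the intestinal epithelium, and the floxed Ptger4 gene was removed only there. There was 1 array per genotype, hybridized with RNA combined from 3 pools of colon. Hence no test was possible and no p-value is given. The small number of arrays limits the precision, and each value describes these arrays only. Following the study's methods, the trimmed mean of each array was brought to 2500 and a change of over 2-fold was the criterion, and "rose" and "fell" are used only past it.

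The lysosome is the acidic compartment in which cells break down material taken up from outside or delivered by autophagy. A proton pump, the V-ATPase, acidifies it, and soluble hydrolases (cathepsins and other proteases, glycosidases and lipid-cleaving enzymes) act inside a membrane coated by LAMP proteins. In antigen-presenting cells the same compartment supplies MHC class II molecules with peptides: cathepsin S (Ctss) trims the invariant chain Cd74, and the thiol reductase GILT (Ifi30) opens disulfide bonds of antigens. In the gut, macrophages and epithelial cells are both rich in lysosomes.

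The arrays were described by their controls first. Signals were multiplied by 3.45 (Villin-Cre) and 2.68 (EP4 cKO), 45.4% and 51.6% of the 56593 gene probes were well above background (the others are called dim below), and no spot was saturated. Over all 14676 genes the median log2 ratio (EP4 cKO over Villin-Cre) was -0.10. Among probes well above background on both arrays, it ran from -0.50 in the dimmest 10% to -0.09 in the brightest 10%. Among 279 probes with at least 8 spots, the SD between spots had a median of 0.035 (log2 ratio), which covers spots of 1 hybridization and not mice. Ptger4 itself had 6227 in Villin-Cre and 5661 in EP4 cKO (log2 ratio -0.14), and 0.59 by a dimmer probe, so that it did not fall by the 2-fold criterion, and the directions are those of the labels. Of the colon tissue markers, all 9 epithelial genes were well above background on both arrays. Of the 4 smooth muscle genes, Myh11 stayed dim on both arrays with all of its 3 probes and Des was dim in Villin-Cre, Cnn1 was 6.62-fold lower in EP4 cKO, and Acta2 had 18006 and 27719 (log2 ratio 0.62). The smooth muscle genes summed to 18616 and 27938, and nearly all of both sums was Acta2.

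None of the 38 members with a value rose by more than 2-fold in EP4 cKO colon, and 2 fell by more than 2-fold. Among all genes with a value, 4.89% were higher and 7.98% lower by this criterion. With scaling to the E1A control spots, which report an RNA added before labelling, however, 17 members were higher and none was lower, and of all genes 5723 were higher and 338 lower. The median log2 ratio of the members was -0.08, beside -0.10 for all genes. With a threshold of 1.5-fold, 3 members were higher (9.86% of all genes) and 5 were lower (18.7% of all genes). The members that fell were the cysteine cathepsins Ctsf and Ctsk. The highest log2 ratios, just inside 2-fold, were those of Ctsz, Ctsc and Neu1. Ctso was the member without a value, since its signals of 94.6 in Villin-Cre and 65.8 in EP4 cKO were not well above background. The paired signals and the ratio of every other member are drawn by role.

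**Figure D1:**
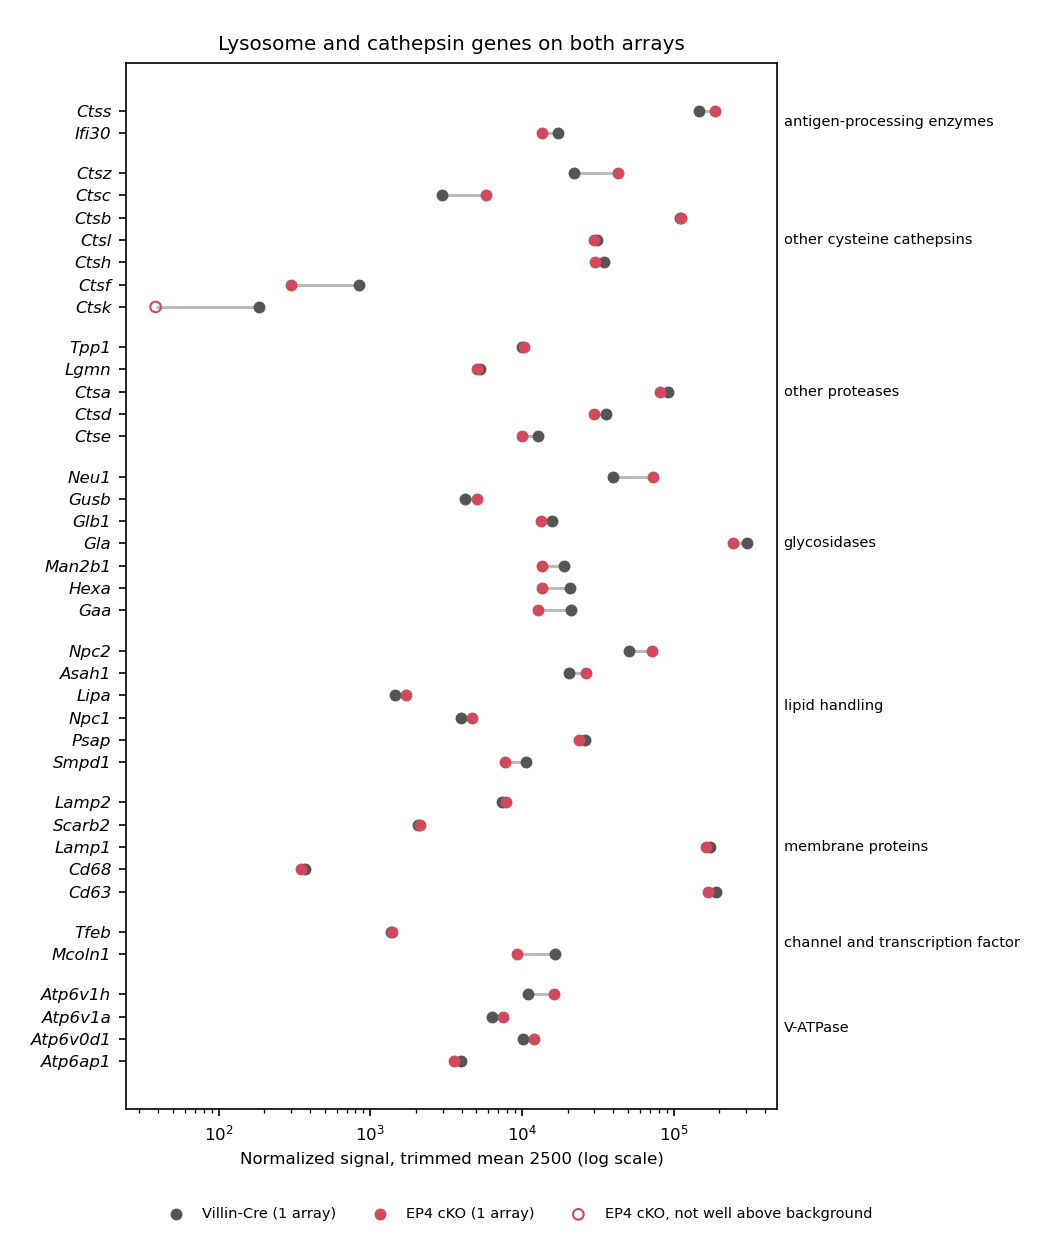
Normalized signal (log axis) of the 38 members with a value on the Villin-Cre array (grey) and the EP4 cKO array (red), 1 array each without error bars, grouped by role, with the open circle marking the signal of Ctsk that was not well above background. The 2 points of most genes lie close together, whereas Ctsf and Ctsk are separated by more than 2-fold, and heights of different genes are not comparable because each comes from its own probe.

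**Figure D2:**
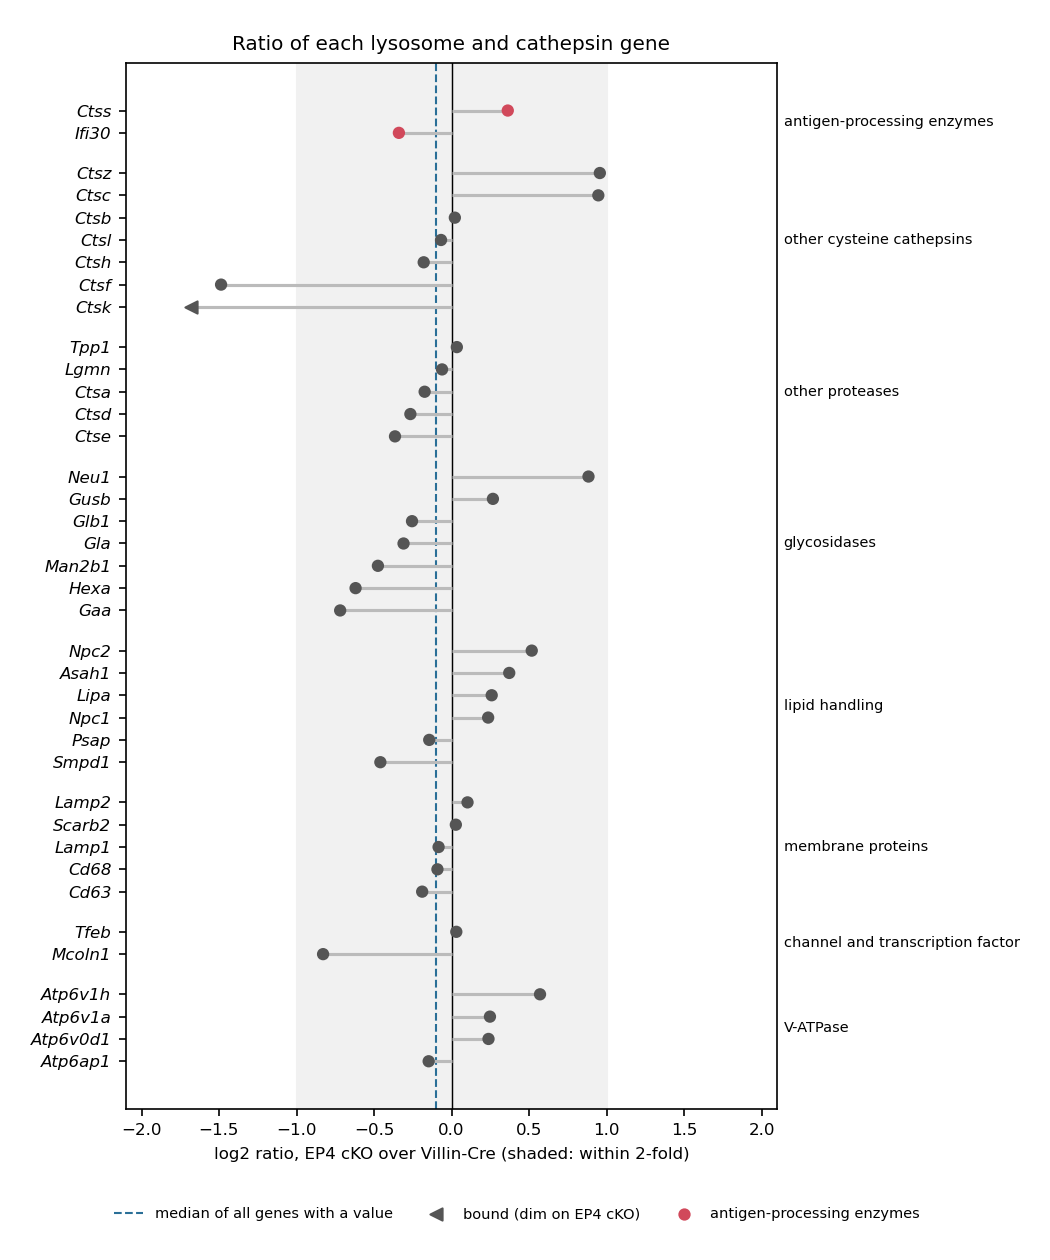
Log2 ratio of EP4 cKO over Villin-Cre for the same 38 genes by role, with the range within 2-fold shaded, the median of all genes with a value (-0.10) dashed, and a triangle where the value is a bound. No point lies to the right of the shaded range, and Ctsf (-1.49) and Ctsk (-1.68 as a bound) lie to its left.

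The enzymes that prepare antigens for MHC class II were the members of main interest. Ctss had a normalized signal of 146916 in Villin-Cre and 188956 in EP4 cKO. This was a log2 ratio of 0.36 (1.29-fold). Of all genes with a value, 16.1% had a larger ratio. Ifi30 had 17261 in Villin-Cre and 13642 in EP4 cKO. Its log2 ratio was -0.34, and 68.0% of all genes had a larger ratio. Thus both enzymes lay within 2-fold and on opposite sides of 0, each by 1 probe with 1 spot, although with E1A scaling both were above 0 (1.40 and 0.69). The mean of both ratios exceeded the median of the other 36 members by 0.09 on the log2 scale, which is smaller than the distance of 0.70 between the enzymes themselves. Legumain (Lgmn), the asparaginyl endopeptidase that makes early cuts in antigens, had 5268 and 5050, a log2 ratio of -0.06. Cathepsin L (Ctsl), which takes the place of cathepsin S in thymic epithelium, was spotted more often, and its log2 ratio was -0.07 ± 0.03 (SD over 8 spots of 1 array pair).

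The genes whose products these enzymes serve gave other values on the same arrays. Of 10 genes of MHC class II presentation, 8 had a value and 7 were more than 2-fold higher, with a median log2 ratio of 5.94. Cd74, the invariant chain cut by cathepsin S, rose from 994 to 125911 (127-fold). The class II transactivator Ciita was dim in Villin-Cre and at least 63.3-fold higher in EP4 cKO. The peptide exchange gene H2-DMb1 rose from 422 to 36031 (85.3-fold). The class II chains H2-Aa (158-fold) and H2-Ab1 (59.4-fold) rose as well, whereas H2-Ob was well above background in EP4 cKO only and had no fold above 1. These rises were known from earlier work on the same arrays, so that the contrast is a description. Under each of the 8 other ways of processing, the median of the class II list was between 5.64 and 6.97, and Ctss was between 0.36 and 1.40, the latter with scaling to the E1A control spots.

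Both enzymes are known to be induced by interferon gamma, and the sequences around their start sites are therefore shown. Interferon-regulated genes often carry paired GAAA repeats bound by IRF factors, and lysosomal genes often carry the CLEAR element, an E-box bound by TFEB. The windows are RefSeq sequences of the assembly GRCm38.p6, 250 bases before to 50 after the start, 5′ to 3′ on the strand of the gene. Capitals mark the match to GAAANNGAA in Ctss (chr3:95526536-95526835, plus strand) and to CACGTG in Ifi30 (chr8:70766614-70766913, minus strand).
Ctss: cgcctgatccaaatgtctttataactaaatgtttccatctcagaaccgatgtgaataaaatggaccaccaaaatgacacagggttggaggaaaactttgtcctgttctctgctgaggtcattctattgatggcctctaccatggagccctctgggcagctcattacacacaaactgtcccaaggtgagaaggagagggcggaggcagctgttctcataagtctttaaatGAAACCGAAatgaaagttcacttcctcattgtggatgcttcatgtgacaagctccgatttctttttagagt
Ifi30: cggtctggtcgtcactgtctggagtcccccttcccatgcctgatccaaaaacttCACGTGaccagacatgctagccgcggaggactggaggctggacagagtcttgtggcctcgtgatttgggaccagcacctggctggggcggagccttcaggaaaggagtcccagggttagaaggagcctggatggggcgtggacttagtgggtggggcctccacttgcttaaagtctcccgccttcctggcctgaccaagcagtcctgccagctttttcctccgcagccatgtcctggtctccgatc
The match in Ctss began 21 bases before the start site. The match in Ifi30 began 196 bases before it and was part of the longer palindrome TCACGTGA. The Ifi30 window held no GAAANNGAA, and the Ctss window held no CACGTG, which says only that these letters were not found there.

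The other cysteine cathepsins spread the most of the groups, with log2 ratios from -1.68 to 0.96 over 7 genes. Ctsz, an exopeptidase of macrophages and epithelial cells, had a signal of 22038 in Villin-Cre and 42782 in EP4 cKO, a log2 ratio of 0.96 (1.94-fold). Ctsc, the dipeptidyl peptidase that activates granule proteases of neutrophils, mast cells and cytotoxic lymphocytes, had 2991 and 5768, a log2 ratio of 0.95 (1.93-fold). Both lay just inside 2-fold and passed it with scaling to the 75th percentile, with a trimmed mean over all spots and with E1A scaling, and Ctsc also after loess. Neutrophil markers, set beside Ctsc, were well above background for 2 of 5 genes in Villin-Cre and 3 in EP4 cKO, with summed signals of 2804 and 3218. S100a8 (at least 2.83-fold) and S100a9 (2.39-fold) were higher, Elane had 2350 and 2097 (log2 ratio -0.16), and Mpo and Cxcr2 were dim on both arrays. The part of these cells in the value of Ctsc was not tested. Ctsb, a broadly expressed endo- and exopeptidase, had 110416 and 112080, a log2 ratio of 0.02. Ctsh, an aminopeptidase, had 3 probes with log2 ratios between -0.18 and 0.05.

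Ctsf, a cysteine cathepsin widely expressed across tissues, fell from 845 to 302 (log2 ratio -1.49). Ctsk, the collagen-degrading cathepsin known from osteoclasts and fibroblasts, had 186 in Villin-Cre and was not well above background in EP4 cKO, which is at least 3.21-fold lower. The 186 came from 1 probe with 1 spot. It lay near 125, the lowest signal of any probe well above background in Villin-Cre, and the bound used 57.8 for EP4 cKO. Both falls were within 2-fold after normexp with quantile normalization (-0.96 and -0.42) and with E1A scaling (-0.45 and -0.65). Fibroblast markers moved in the same direction, with 4 of 5 well above background in Villin-Cre and 2 in EP4 cKO. Their summed signal was 11493 in Villin-Cre and 262 in EP4 cKO, and Dcn alone fell from 6006 to 110. Col1a2 fell from 3613 to 111, Col1a1 and Lum were at least 22.7-fold and 8.91-fold lower, and Pdgfra was dim on both arrays. The part of these cells in the falls of Ctsf and Ctsk was not tested, and in RNA of whole colon fewer cells of a type cannot be told apart from less RNA per cell.

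Among the other proteases no gene passed 2-fold, and the log2 ratios ran only from -0.36 to 0.03. Ctsd, the main aspartic protease of lysosomes, had 35750 in Villin-Cre and 29744 in EP4 cKO, a log2 ratio of -0.27. Ctse, an aspartic protease of gastric and intestinal epithelium and of antigen-presenting cells, had 12870 and 9997, the lowest of the group at -0.36. Ctsa, the carboxypeptidase that protects Neu1 and Glb1 in a complex, had a log2 ratio of -0.17, and the tripeptidyl peptidase Tpp1 had 0.03.

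The glycosidases had a median log2 ratio of -0.31 over 7 genes, 5 of them below 0. Neu1, the lysosomal sialidase, stood apart from them with 39633 in Villin-Cre and 73134 in EP4 cKO, a log2 ratio of 0.88 (1.85-fold). Its partners in the complex did not share this value, since Ctsa had -0.17 and Glb1, the beta-galactosidase, had -0.25. Gaa, the acid alpha-glucosidase that degrades glycogen, went the other way with 21144 and 12851 (-0.72), and its dimmer probe gave -1.13. Hexa, the alpha subunit of beta-hexosaminidase, had 20827 and 13563 (-0.62). Man2b1 (alpha-mannosidase) had -0.47, Gla (alpha-galactosidase A) had -0.31 and Gusb (beta-glucuronidase) had 0.27. With E1A scaling all 7 ratios were above 0.

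Genes of lipid handling had a median log2 ratio of 0.25, with 4 of 6 above 0. Npc2, which passes cholesterol to Npc1 for export from the lysosome, had 50660 in Villin-Cre and 72527 in EP4 cKO, a log2 ratio of 0.52 (1.43-fold), and Npc1 had 0.24. The acid ceramidase Asah1 had 0.37 and 0.70 by its 2 probes, and the acid lipase Lipa had 0.26. The acid sphingomyelinase Smpd1 had 10663 and 7757, a log2 ratio of -0.46. Psap, the precursor of the saposins that present sphingolipids to these enzymes, had -0.14. Hence Smpd1 and Asah1, which act one after the other on sphingomyelin and ceramide, had ratios on opposite sides of 0, except with E1A scaling, under which both were above 0.

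Membrane proteins varied least, with log2 ratios between -0.19 and 0.10 over 5 genes. Lamp1, the most abundant glycoprotein of the lysosomal membrane, had 173018 in Villin-Cre and 163309 in EP4 cKO (-0.08). Cd63, a tetraspanin of lysosomes and secreted vesicles, had -0.19 ± 0.03 (SD over 9 spots of 1 array pair). Scarb2, the receptor that carries beta-glucocerebrosidase to the lysosome, had 0.03. Lamp2 had 0.10 by the brighter probe and 0.57 by a dimmer probe for another transcript, a distance of 0.47 that was the largest between probes of a member. Cd68, a lysosomal glycoprotein used as a macrophage marker, had 373 and 351, a log2 ratio of -0.09, and its second probe was dim on both arrays.

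Values of macrophage genes are set beside those of Ctss, Ifi30 and Cd68 because macrophages express them strongly. Of 14 macrophage markers, 5 were well above background in Villin-Cre and 10 in EP4 cKO, and their summed signal was 65274 and 89794. The difference in the sum came from Itgam (49347 and 68598, log2 ratio 0.48) and Cd14 (8483 and 15583, log2 ratio 0.88), both of which were within 2-fold. The defining genes Adgre1 (F4/80), Cd163, Lyz2 and Fcgr1 were dim on both. Mrc1, the mannose receptor, and Cx3cr1, a chemokine receptor, were at least 4.31-fold and 2.04-fold higher in EP4 cKO, whereas Csf1r, the receptor of the macrophage growth factor, had 4874 and 2817, a log2 ratio of -0.79, and Mertk, a receptor for apoptotic cells, had -0.55. Of the complement genes, C1qb had 0.33, and C1qa and C1qc were dim in Villin-Cre with no fold above 1. Of 6 dendritic cell markers, Itgax (CD11c) rose from 152 to 505 (3.32-fold), and Flt3, Xcr1 and Batf3 were dim on both arrays. The dendritic markers summed to 465 and 816, a difference made by Itgax alone, since Ccr7 had a log2 ratio of -0.05 and Zbtb46, dim in Villin-Cre, had no fold above 1. Of 4 B cell markers, none was well above background in Villin-Cre and 2 were in EP4 cKO. Epithelial markers summed to 1380230 and 1816510, with a median log2 ratio of 0.10. Krt20 rose from 146575 to 510711 (3.48-fold), most of the difference in the sum, and 6 of the 9 ratios were above 0, among them Epcam (0.56), Vil1 (0.52) and Slc26a3 (0.41), whereas Car1 (-0.42), Cdx2 (-0.25) and Cdh1 (-0.10) were below 0. The part of these cells in the values of Ctss and Ifi30 was not tested.

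Acidification and signaling completed the set. The V-ATPase genes had a median log2 ratio of 0.24. Atp6v1h, the regulatory H subunit, had 10942 in Villin-Cre and 16257 in EP4 cKO (0.57, and 0.81 by a dimmer probe). Atp6v1a, the catalytic subunit, had 0.25 and Atp6v0d1, a subunit of the membrane sector, had 0.24, whereas the accessory protein Atp6ap1 had -0.15. Mcoln1, the calcium channel TRPML1 of the lysosome, had 16555 and 9322, a log2 ratio of -0.83 (1.78-fold lower) and the lowest of the members within 2-fold. The transcription factor Tfeb, which drives many lysosomal genes, had 3 probes well above background on both arrays with log2 ratios between -0.15 and 0.07.

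Sequences at the start sites of the members were compared with those of all genes. RefSeq windows were available for 33 of the 39 members (38 windows, several for some genes). The E-box CACGTG was found in 13 of these windows (34.2%), against 7.15% of all 32851 windows of this length. The longer TCACGTGA, which contains the E-box, was found in 7 member windows (18.4%) and in 0.974% of all windows. By contrast, GAAANNGAA (either strand) was in 3 member windows (Ctss, Ctso and Lamp1) and 8.56% of all, and the cAMP response element TGACGTCA in 1 (Gusb) and 1.79% of all. Windows are shown for Ctsf, which fell, and for Mcoln1, the lowest within 2-fold, with CACGTG in capitals in Ctsf (chr19:4854915-4855214, plus strand) and Mcoln1 (chr8:3500269-3500568, plus strand).
Ctsf: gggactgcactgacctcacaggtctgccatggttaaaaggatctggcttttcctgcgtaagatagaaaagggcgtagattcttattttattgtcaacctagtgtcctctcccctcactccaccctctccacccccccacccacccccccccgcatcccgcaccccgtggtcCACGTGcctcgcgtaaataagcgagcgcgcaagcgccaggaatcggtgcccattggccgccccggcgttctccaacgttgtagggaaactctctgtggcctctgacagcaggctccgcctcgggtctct
Mcoln1: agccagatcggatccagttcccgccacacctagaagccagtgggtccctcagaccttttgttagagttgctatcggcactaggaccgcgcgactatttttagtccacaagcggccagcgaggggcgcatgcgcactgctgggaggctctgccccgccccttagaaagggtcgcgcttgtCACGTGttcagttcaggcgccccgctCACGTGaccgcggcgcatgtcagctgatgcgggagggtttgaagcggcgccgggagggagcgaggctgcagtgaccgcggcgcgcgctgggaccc
The match in Ctsf began 79 bases before the start site. Mcoln1 held 2 matches, beginning 71 and 45 bases before it. Of the 13 members with the E-box, 2 had a log2 ratio above 0 (Atp6v1a and Atp6v0d1) and 11 below 0, beside 57.5% of all genes below 0. Of the other 25 members with a value, those with no window included, 15 were above 0 and 10 below. Several of the 11 lay close to 0: with scaling to the 75th percentile or a trimmed mean over all spots 5 of the 13 were above 0, Ctsl, Lamp1 and Lgmn being added, and after normexp or loess 4 were. With E1A scaling 12 of the 13 and 24 of the 25 were above 0. No test was made of this difference, and a match is only a description of these letters.

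Further lysosomal genes were examined outside the set. Among 31 other hydrolases and activators with a value, none was more than 2-fold higher and 3 (9.68%) were lower, beside 4.89% and 7.98% of all genes, with a median log2 ratio of -0.28. The 3 were the phospholipase Pla2g15 (669 and 254, log2 ratio -1.40), the hyaluronidase Hyal1 (at least 2.47-fold lower) and the carboxypeptidase Cpq (22049 and 9137, log2 ratio -1.27). Among 24 other membrane proteins and transporters, 2 were higher and 2 were lower (8.33% each). Litaf, a membrane protein of late endosomes, had 36070 and 73034 (2.02-fold) and the amino acid sensor Slc38a9 had 229 and 466 (2.04-fold), whereas the cystine exporter Ctns (2.35-fold) and the nucleoside transporter Slc29a3 (2.06-fold) were lower. None of 15 other V-ATPase subunits and none of 23 sorting genes passed 2-fold in either direction. Of 18 genes of the TFE factors and the mTORC1 complex on the lysosome, Rragd, a Rag GTPase, was at least 2.79-fold lower. Some of these calls changed with the setting. Slc29a3 was not more than 2-fold lower with the 75th percentile, a trimmed mean over all spots, normexp or loess. After normexp only Cpq and Ctns stayed lower. In that setting 1 of the hydrolases and activators and 1 of the membrane proteins were higher. With E1A scaling none of these 5 lists held a gene more than 2-fold lower. Under it, 9 of 31 hydrolases and activators, 11 of 24 membrane proteins and 10 of 15 V-ATPase subunits were higher. So were 7 of 23 sorting genes and 9 of 18 TFE and mTORC1 genes. Of all 14676 genes, 5723 were higher and 338 lower in that setting. The shares of the hydrolases and of the sorting genes lay below that of all genes, and those of the other lists above it. The ratios of these lists are plotted beside those of MHC class II presentation.

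**Figure D3:**
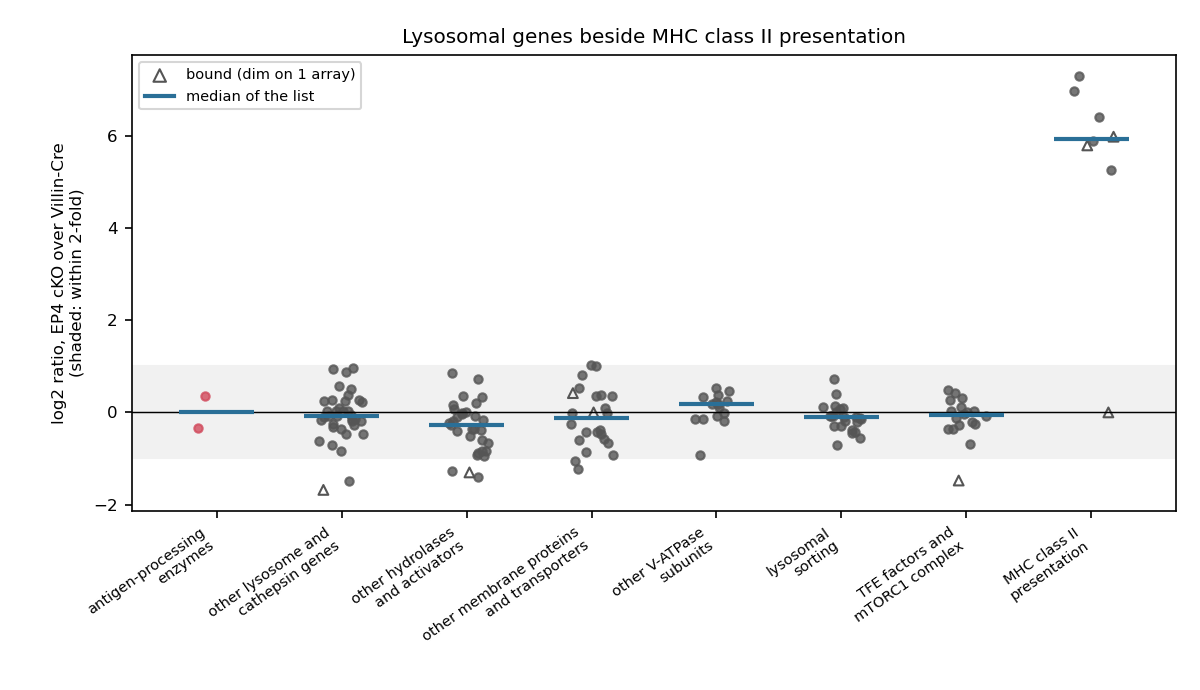
Log2 ratio of EP4 cKO over Villin-Cre for each gene (points; open triangles are bounds, held at 0 where no fold above 1 could be given) of the 2 antigen-processing enzymes, the 36 other members and 6 further lists, with the median of each list as a bar and the range within 2-fold shaded. In the scaling plotted, lysosomal lists have medians between -0.28 and 0.18, whereas MHC class II presentation has a median of 5.94.

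Scaling choices shifted the ratios. Relative to the scaling used here, the median of all genes moved by 0.10 with scaling to the 75th percentile, by 0.10 with normexp and quantile normalization, by 0.14 after loess and by 0.97 with scaling to the E1A control spots, which were dimmer on the EP4 cKO array. With E1A scaling 36 of 38 members had a ratio above 0, against 17 as reported. The ratio of Ctss minus the median of all genes was 0.46 as reported, and it was between 0.43 and 0.73 under the 8 other settings. That of Ifi30 was -0.24 as reported and between -0.33 and 0.03, and it exceeded 0 only without a filter on dim probes. Of the 9 members with at least 2 probes well above background on both arrays, 7 had all such probes on the same side of 0, and the exceptions were Ctsh and Tfeb.

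**Figure D4:**
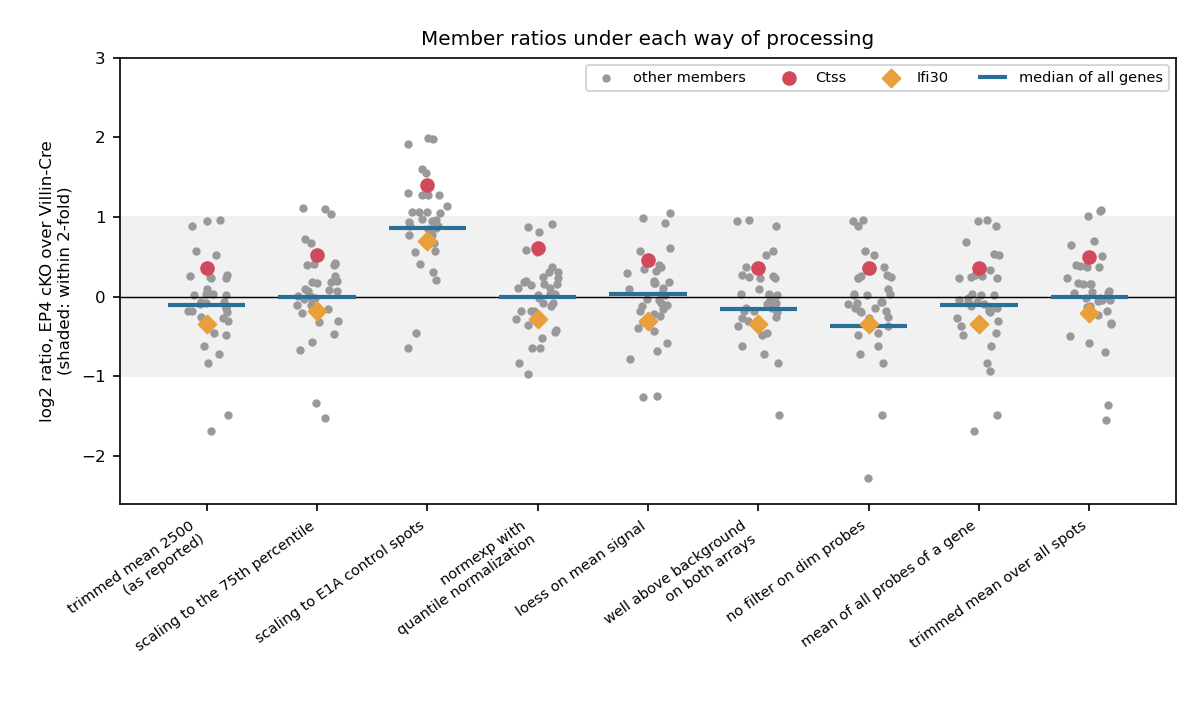
Log2 ratio of EP4 cKO over Villin-Cre of the members under the scaling as reported and under 8 alternatives, with Ctss (red circles), Ifi30 (orange diamonds), the other members (grey) and the median of all genes (blue bars). Ctss lies above the median of all genes in every setting shown. That median is highest with scaling to the E1A control spots (0.87) and lowest without a filter on dim probes (-0.37), where the median of the members stays at -0.08.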

How the data were processed

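Scanner output for both arrays was deposited by the authors. The software version was 12.0.3.1 in the file headers and 11.5.1.1 in the submitters' processing notes. The deposited intensity used here is the processed signal, background-subtracted and detrended by the software and not scaled between arrays. Its log2 ratio was computed here as EP4 cKO over Villin-Cre. Control spots were left out, as were outlier spots (147 in Villin-Cre, 126 in EP4 cKO), and spots of a probe were averaged. Trimming removed 2% of probes at both ends and left means of 724 (Villin-Cre) and 931 (EP4 cKO). A probe counted as well above background if at least 0.5 of its spots carried that flag. A probe flagged on 1 array only was given a bound, with its dim signal raised, if lower, to the lowest signal of any probe well above background (125 and 57.8). Bounds with no fold above 1 entered as a log2 ratio of 0. Probes were named by RefSeq accession without version (32984 of 56593, 58.3%), and the brightest probe with a value stood for a gene.

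The members and lists were chosen with earlier results of these data known. All members are named, and for every other list at most 5 genes, those furthest past 2-fold, except that further genes of these lists were picked for their role after their values were seen. The motifs were likewise chosen then. A further motif is not reported here. The alternatives were scaling to the 75th percentile or to E1A spots, normexp (offset 50), run on the median signal, with quantile normalization, loess (span 0.3), other filters on dim probes, the mean of probes, a trimmed mean over all spots, and thresholds of 1.5-fold and 3-fold. Steps were tested on simulated data. The normexp step used limma 3.58.1 in R 4.3.3, loess used statsmodels 0.14.6, and all else used pandas 2.3.3 and numpy 2.4.6 in Python 3.11.15.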

Additional observations from a re-analysis of the deposited data

How the results depend on the processing

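With 1 array per genotype leaving out a sample was not possible. No paired analysis was possible either, since each genotype had only 1 array and no label pairs the arrays. The count of members more than 2-fold higher, 0 as reported, was 3 with scaling to the 75th percentile (Ctsc, Ctsz and Neu1; 6.42% of all genes), 3 with a trimmed mean over all spots (6.17%), 3 at a threshold of 1.5-fold (9.86%), 1 after loess (Ctsc; 7.68%) and 17 when scaled by the E1A control spots (5723 of 14676 genes). The count more than 2-fold lower, 2 as reported, was 0 with E1A scaling (2.30% of all genes), 0 after normexp with quantile normalization (2.66%), 1 over probes well above background on both arrays (Ctsf; 6.27%), 5 at 1.5-fold (18.7%) and 1 at 3-fold (Ctsk; 3.73%). The median log2 ratio of the members, -0.08 as reported, was 0.0814 with the 75th percentile, 0.959 with E1A scaling, 0.0329 after normexp, 0.0268 after loess and 0.0571 with a trimmed mean over all spots, so its sign depended on the scaling. The mean of Ctss and Ifi30 minus the median of the other members, 0.09 as reported, moved most after normexp, to 0.14. Neither Ctsf nor Ctsk was above 0 in any setting that gave a value.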

Other observations

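Autophagy, which delivers material to lysosomes, was measured by 22 listed genes, all with a value. None passed 2-fold in either direction, beside 4.89% of all genes higher and 7.98% lower, and the median log2 ratio was -0.06. With E1A scaling, 9 of the 22 passed 2-fold, all of them higher. In that setting 5723 of all 14676 genes were higher, a share close to that of the 22. Gabarapl1, a ubiquitin-like protein of the autophagosome, came closest to 2-fold in the trimmed-mean scaling with 28268 in Villin-Cre and 14291 in EP4 cKO, a log2 ratio of -0.98, whereas Map1lc3b had 0.41 and the cargo receptor Sqstm1 had 0.09. Of 13 cystatin genes, whose products inhibit cysteine cathepsins, 6 had a value and none passed 2-fold. After loess 3 were higher, beside 7.68% of all genes. With E1A scaling 4 were higher, beside the 5723 of 14676 genes. Only 3 of the 6 were well above background on both arrays, since Cst6, Cst7 and Fetub were dim in Villin-Cre. Cst3 had -0.18 and Cstb had 0.10, and Stfa3 had 889 and 1588, a log2 ratio of 0.84. Cst7, which inhibits Ctsc and Ctsl, was well above background in EP4 cKO only, with a log2 ratio of at least 0.38. These genes were picked from the lists after their values were seen.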
